A study of Rattus norvegicus with 4 samples.

Results

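Hyperpolarisation-activated cyclic nucleotide-gated (HCN) channels are the ion channels behind the pacemaker current of excitable cells. Transcripts of the HCN genes Hcn2, Hcn3 and Hcn4 were measured by RNA sequencing in lumbar dorsal root ganglia (DRGs) from rats given vehicle or cisplatin. The genes were taken as the rows of the deposited count table whose gene name was Hcn2, Hcn3 or Hcn4 and whose biotype was protein-coding, which gave 3 of 22293 protein-coding genes. All 3 passed the filter on low counts that left 14719 genes for testing. Other genes of the family were not analysed here.

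Wild-type neonatal Wistar rats received either vehicle (PBS) or cisplatin, a platinum-based chemotherapeutic, at 0.3 mg/kg. There were 2 rats per group, each sequenced as 1 library, labelled Rat 1 and Rat 2 within each treatment in the sample titles. The column names of the deposited counts give the cisplatin libraries other numbers. The study's methods place the intraperitoneal injections at P14 and P16 and the tissue collection at P23, whereas the labels give 16 days after treatment. Several DRGs were pooled for each library, and the sex of the rats was not stated for the libraries. The total count ranged from 21384801 to 25618417. Markers that define the tissue were present, with summed pan-neuronal markers between 18433 and 30466 CPM (a gene’s counts scaled for library size and composition) and summed nociceptor markers between 4070 and 7033 CPM. Of the marker list for skeletal and cardiac muscle, the sum was 276 CPM in the vehicle Rat 1 library and 9.86 to 37.4 CPM in the other 3. In whole ganglia, fewer cells of a type and less RNA per cell cannot be told apart.

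HCN channels open when the membrane becomes more negative and pass an inward cation current, called Ih, that brings the cell back towards its firing threshold. Binding of cAMP to the intracellular tail makes several of them easier to open, which links inflammatory mediators that raise cAMP to firing rate. In sensory neurons Hcn2 is known for its role in inflammatory and neuropathic pain. Hcn4 is best known as the channel of the sinoatrial node, and Hcn3 is a less cAMP-responsive member of the family.

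The 3 genes lie on separate chromosomes of the Rnor_6.0 rat genome used by the deposited tables. Hcn2 (ENSRNOG00000008831) spans chr7:12851739-12874215 on the minus strand, with 2541 bases of exon. Hcn3 (ENSRNOG00000020444) spans chr2:188454853-188471988 on the minus strand, with 6413 bases of exon. Hcn4 (ENSRNOG00000009450) spans chr8:63600663-63639654 on the plus strand, with 5518 bases of exon. No other annotated gene overlapped Hcn2 or Hcn4. Pklr, which encodes the pyruvate kinase of liver and red cells, overlapped Hcn3 by 4740 bases on the opposite strand, and Pklr itself held only 1 to 5 counts in any library. Whether counting used strand is not given in the sources used here, so reads from the shared stretch of Hcn3 could be affected.

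Because Hcn2 was the most abundant of the 3 genes, its promoter is shown. Only 1 of the 3 genes had an entry in the RefSeq promoter table, so Hcn3 and Hcn4 are named only. The stretch is the 250 bases before the start of Hcn2 in build GRCr8, which differs from the build of the count table, at chr7:10639458-10639707 on the minus strand. It is written 5′ to 3′ along the gene, and the capitals mark matches to the GC box letters GGGCGG read on the opposite strand.
Hcn2: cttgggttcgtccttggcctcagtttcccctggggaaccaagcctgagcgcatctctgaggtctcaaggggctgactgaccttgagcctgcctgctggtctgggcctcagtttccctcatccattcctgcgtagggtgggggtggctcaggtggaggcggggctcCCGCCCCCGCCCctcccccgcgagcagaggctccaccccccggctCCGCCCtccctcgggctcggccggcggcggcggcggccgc
The stretch was 71.6% G and C, against a median of 51.2% over 33469 promoters of the same length, and 94.0% of those promoters were at or below it. It held 3 GC boxes when both strands were searched, none of them on the gene's own strand. At least 1 GC box was found in 30.5% of all promoters and as many as 3 in 7.41%. Neither the cAMP response element letters TGACGTCA nor the TATA box letters TATAAA were present on either strand, and these were found in 1.59% and 12.9% of all promoters. These matches describe letters in a window.

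Hcn2 was the most abundant of the HCN genes in every library. As FPKM, the read count scaled for exon length and library size, Hcn2 stood at 71.7 and 46.6 in the vehicle libraries of Rat 1 and Rat 2, and at 89.9 and 47.1 in the cisplatin libraries. Hcn4 stood at 2.17 and 1.49 FPKM in vehicle and at 2.59 and 1.83 FPKM in cisplatin. Hcn3 was the lowest, at 1.79 and 0.906 FPKM in vehicle and at 1.63 and 0.889 FPKM in cisplatin. The order Hcn2, Hcn4, Hcn3 was the same in all 4 libraries, yet only the first step in it was larger than the spread. Hcn2 exceeded Hcn4 by 25.7-fold to 34.7-fold within a library, and its lowest library lay above the highest library of either other gene. The size of these ratios, and the ranks below, depend on the annotated exon length, 2541 bases for Hcn2 against 5518 for Hcn4 and 6413 for Hcn3. In CPM, which is not scaled for length, the lowest Hcn2 library held 122. The highest libraries of Hcn4 and Hcn3 held 14.6 and 11.7 CPM. Hcn4 exceeded Hcn3 by 1.21-fold to 2.06-fold within a library, and their ranges across libraries overlapped. Ranked by mean FPKM among the 14719 genes tested, Hcn2 lay at percentile 90.8, Hcn4 at 23.9 and Hcn3 at 17.5.

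**Figure D1:**
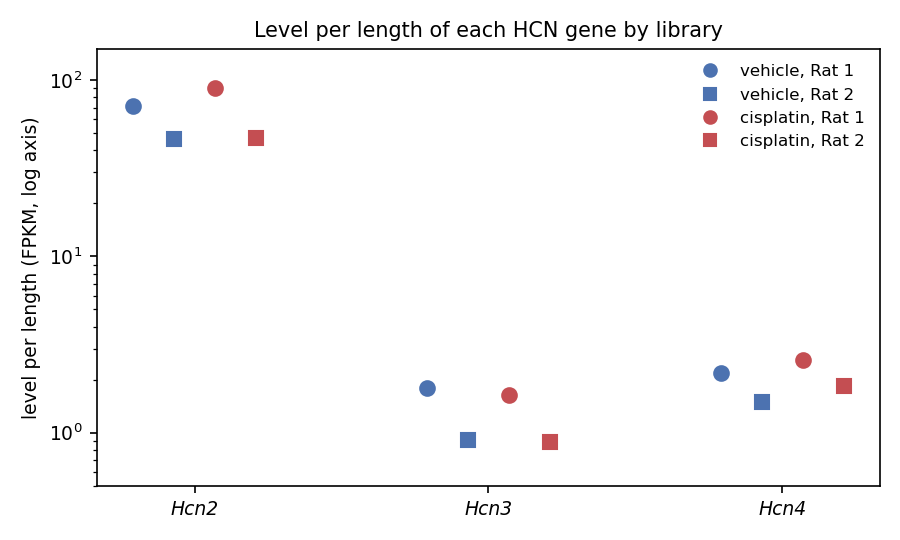
Level per length of each HCN gene, in FPKM on a log axis, with 1 point for each of the 4 libraries (blue vehicle, red cisplatin; circles Rat 1, squares Rat 2). Hcn2 sits between 46.6 and 89.9 FPKM, far above Hcn4 at 1.49 to 2.59 FPKM and Hcn3 at 0.889 to 1.79 FPKM, whose ranges overlap.

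The share of each gene in the summed FPKM of the 3 does not depend on library size, though it does depend on annotated exon length. Hcn2 made up 94.8% and 95.1% of the sum in vehicle and 95.5% and 94.5% in cisplatin, so the groups overlapped. Hcn4 made up 2.87% and 3.04% in vehicle and 2.76% and 3.68% in cisplatin, again with overlap. The share of Hcn3 was 2.37% and 1.85% in vehicle and 1.73% and 1.78% in cisplatin. Both cisplatin values of Hcn3 were below both vehicle values, a difference of group means of -0.353 percentage points (n = 2 per group). The two-sided exact permutation test gave p = 1 for Hcn2 and Hcn4 and p = 0.333 for Hcn3, which is the smallest p that 2 against 2 samples can give. The difference for Hcn2 was 0.0933 percentage points and turned to -0.0792 without vehicle Rat 1 and to -0.392 without cisplatin Rat 1. The difference for Hcn4 was 0.259 percentage points and turned to -0.201 without cisplatin Rat 2. For Hcn3 the difference was -0.0924 percentage points without vehicle Rat 1.

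The main comparison asked whether transcripts of the HCN genes differed after early-life cisplatin, in a model used by the study for delayed pain. None of the 3 genes was called different between cisplatin and vehicle. A gene was called at an adjusted p (Benjamini-Hochberg, over all 14719 genes) under 0.05 with a fold change of at least 1.5 in edgeR's quasi-likelihood test. By that rule edgeR called 0.00679% of all genes, which was 1 gene, LOC100911363, named here after its value was seen. At an unadjusted p under 0.05, 0 of the 3 genes passed against 9.57% of all genes. DESeq2 called 0 of the 3, against 0.652% of all genes. With so few calls over all genes, and 2 rats a group, the absence of a call does not show that the levels were equal, and the intervals below give what the data allow.

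Hcn2, the HCN gene tied to pain, had 4654 and 2402 counts in the vehicle libraries of Rat 1 and Rat 2, and 5937 and 2877 in the cisplatin libraries. Scaled to CPM these were 186 and 122 in vehicle and 234 and 122 in cisplatin. Cisplatin Rat 1 was the highest library, while cisplatin Rat 2 and vehicle Rat 2 were nearly the same, so the groups overlapped. The mean was 154 ± 45.2 CPM in vehicle and 178 ± 78.8 CPM in cisplatin (SD, n = 2). The log2 fold change of cisplatin against vehicle was 0.21 with an SE of 0.37 and a 95% interval of -0.73 to 1.14 (edgeR adjusted p = 0.872). As a fold change, the interval ran from 0.605 to 2.21. Within a group the Rat 1 library exceeded the Rat 2 library by 1.52-fold in vehicle and 1.91-fold in cisplatin, both larger than the 1.16-fold difference between groups. The log2 fold change was -0.06 without vehicle Rat 2 and -0.32 without cisplatin Rat 1, and rose to 0.55 and 0.60 without vehicle Rat 1 and without cisplatin Rat 2.

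Hcn3 had 294 and 118 counts in vehicle and 272 and 137 in cisplatin, the fewest of the 3 genes. For the lowest of these, 118, the exact 95% Poisson interval was 97.7 to 141 counts, which covers counting error only. In CPM the vehicle libraries held 11.7 and 5.99 and the cisplatin libraries 10.7 and 5.82. Each cisplatin library lay close to the vehicle library of the same number, and the groups overlapped. The mean was 8.87 ± 4.07 CPM in vehicle and 8.26 ± 3.45 CPM in cisplatin (SD, n = 2). The log2 fold change was -0.10 with an SE of 0.45 and a 95% interval of -1.23 to 1.02 (edgeR adjusted p = 0.950). The Rat 1 library exceeded the Rat 2 library by 1.96-fold in vehicle and 1.84-fold in cisplatin. The direction was not stable, since the log2 fold change was 0.47 without vehicle Rat 1, 0.27 without cisplatin Rat 2 and 0.18 after a correction for gene length. Without vehicle Rat 2 and without cisplatin Rat 1 it was -0.50 and -0.60.

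Hcn4, the cardiac pacemaker channel, had 306 and 167 counts in vehicle and 372 and 243 in cisplatin. These corresponded to 12.2 and 8.48 CPM in vehicle and to 14.6 and 10.3 CPM in cisplatin. Vehicle Rat 1 lay between the cisplatin libraries, so the groups overlapped here too. The mean was 10.4 ± 2.64 CPM in vehicle and 12.5 ± 3.05 CPM in cisplatin (SD, n = 2). The log2 fold change was 0.27 with an SE of 0.31 and a 95% interval of -0.50 to 1.04 (edgeR adjusted p = 0.789). Rat 1 exceeded Rat 2 by 1.44-fold in vehicle and 1.42-fold in cisplatin, against 1.20-fold between groups. The log2 fold change kept its sign but was 0.03 without vehicle Rat 2 and 0.00 without cisplatin Rat 1, and 0.56 and 0.50 without vehicle Rat 1 and without cisplatin Rat 2. After the correction for gene length it was 0.50.

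**Figure D2:**
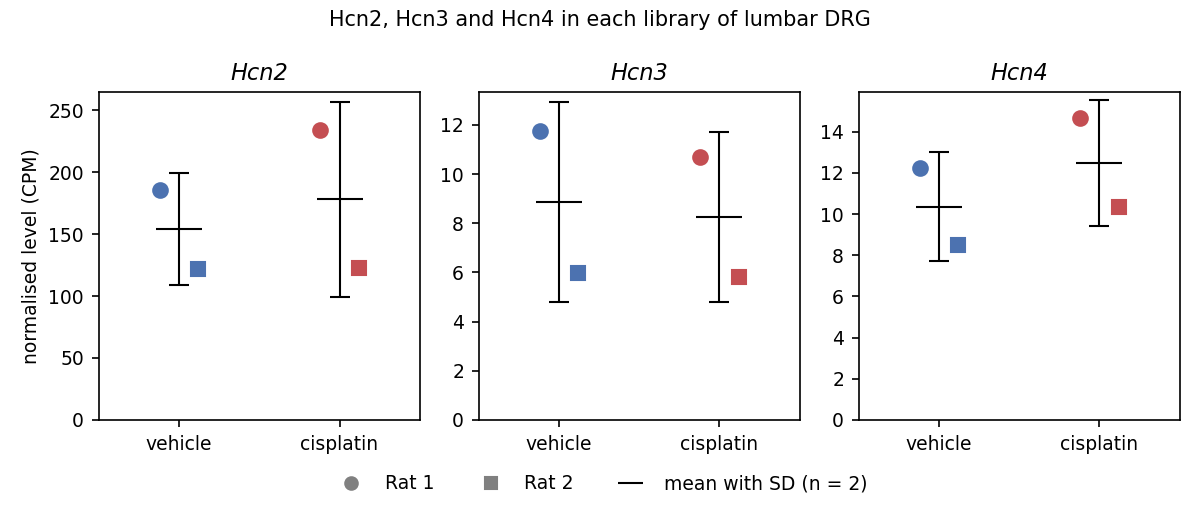
Normalised level in CPM of Hcn2, Hcn3 and Hcn4 in each library, by treatment, with circles for Rat 1, squares for Rat 2 and bars for the mean with SD (n = 2). In each panel the vehicle and cisplatin points overlap and the Rat 1 circle lies above the Rat 2 square, as for Hcn2 at 186 and 122 CPM in vehicle.

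No HCN gene had both cisplatin libraries above both vehicle libraries, an order seen in 20.6% of all genes tested, and none had both below, seen in 21.2%. All 3 had both Rat 1 libraries above both Rat 2 libraries, an order that 22.7% of all genes showed. Summed markers of sensory neurons were also higher in the Rat 1 library of each treatment. The summed pan-neuronal markers (12 of 12 genes tested) were 23498 and 18433 CPM in vehicle and 30466 and 21605 CPM in cisplatin. The summed nociceptor markers (10 of 10) were 5337 and 4070 CPM in vehicle and 7033 and 4985 CPM in cisplatin. Markers of large myelinated sensory neurons (7 of 8) summed to 8039 and 5895 CPM in vehicle and 8632 and 6312 CPM in cisplatin. Markers of myelinating Schwann cells (5 of 5) moved the other way, with 60005 and 154422 CPM in vehicle and 47271 and 135467 CPM in cisplatin. The satellite glia list (4 of 4) summed to 386 and 558 CPM in vehicle and 346 and 517 CPM in cisplatin. Its genes went both ways, with a median log2 difference of Rat 1 minus Rat 2 of -0.0083 in vehicle and -0.17 in cisplatin. A few genes held most of the neuronal sums. In vehicle Rat 1, Nefl and Nefm held 9321 and 7208 CPM of the pan-neuronal sum. Prph held 2978 CPM of the nociceptor sum there, and Nefh 6986 CPM of the large myelinated neuron sum. Ntrk3, of the large myelinated neuron list, was lower in the Rat 1 library of each treatment. It stood at 7.71 and 9.80 CPM in vehicle and 5.47 and 7.91 CPM in cisplatin. The part of cell composition in the HCN levels was not tested.

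Lists for other cell types were also measured. Macrophage markers (8 of 8) summed to between 49.8 and 58.1 CPM in any library. Endothelial markers (3 of 5 tested) summed to between 64.2 and 98.7 CPM, with Cldn5, which encodes a tight junction protein, at 0 counts in all 4 libraries. Fibroblast and meningeal markers summed to between 2558 and 6552 CPM, and smooth muscle and pericyte markers to between 153 and 277 CPM.

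Set against the pan-neuronal markers of the same library, the HCN genes differed less between libraries. Per 1000 CPM of summed pan-neuronal markers, Hcn2 stood at 7.91 and 6.62 CPM in vehicle and 7.67 and 5.66 CPM in cisplatin. Hcn4 was the flattest on this scale, at 0.520 and 0.460 in vehicle and 0.481 and 0.478 in cisplatin. Hcn3 remained the most spread, at 0.500 and 0.325 in vehicle and 0.351 and 0.270 in cisplatin. The groups overlapped for all 3 genes on this scale, and the mean log2 difference of cisplatin minus vehicle was -0.14 for Hcn2, -0.39 for Hcn3 and -0.03 for Hcn4, so the sign for Hcn2 and Hcn4 was opposite to that on the CPM scale. For Hcn4 the order of the groups depended on the marker list. Per 1000 CPM of nociceptor markers Hcn4 stood at 2.291 and 2.085 in vehicle and 2.082 and 2.072 in cisplatin. Both cisplatin values were lower, but vehicle Rat 2 and cisplatin Rat 1 were nearly equal. That gap was within counting error, as the 167 Hcn4 counts of vehicle Rat 2 had a 95% Poisson interval of 143 to 194. Per 1000 CPM of large myelinated neuron markers Hcn4 stood at 1.52 and 1.44 in vehicle and 1.70 and 1.64 in cisplatin, both being higher. Neither order was tested, and the smallest exact permutation p for 2 against 2 samples is 0.333. The groups of Hcn2 and Hcn3 overlapped against each of these lists.

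**Figure D3:**
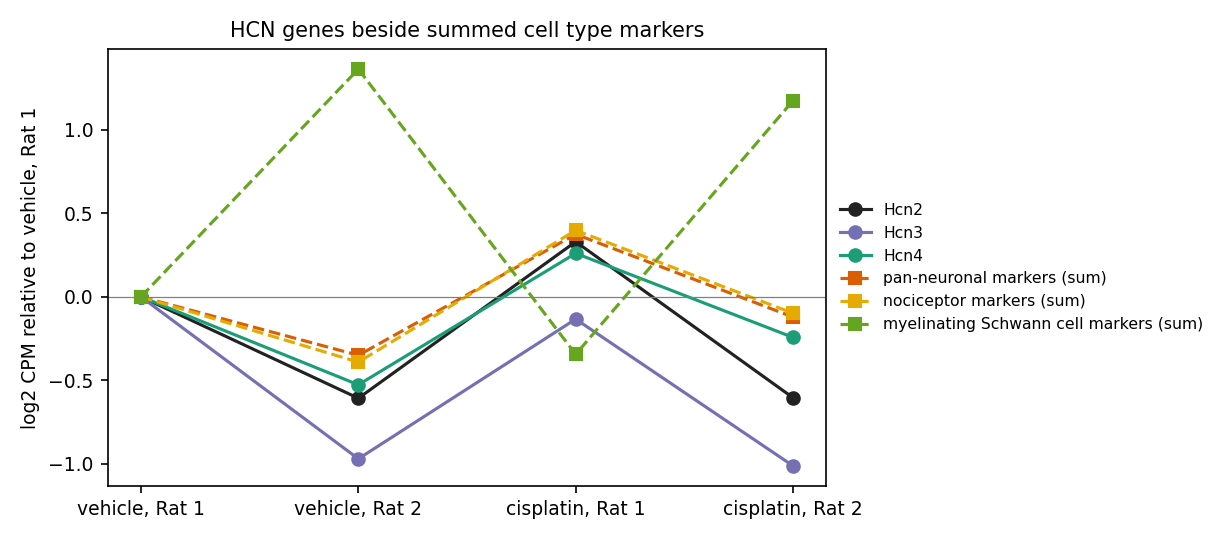
Log2 CPM of the 3 HCN genes and of 3 summed marker lists in each library, relative to the vehicle Rat 1 library, with lines joining the points of 1 gene or list only as a guide to the eye. The HCN genes and the neuronal lists are higher in the Rat 1 library of each treatment, and the summed Schwann cell markers are lower there, at 60005 against 154422 CPM in vehicle.

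The genes whose profile over the 4 libraries was most like that of each HCN gene were found by the root-mean-square (RMS) difference of centred log2 CPM. For Hcn2 these were Mstn at 0.0242, Ubash3a at 0.0259 and Grin1, an NMDA receptor subunit gene, at 0.0278, against a median of 0.481 over all genes tested. Grin1 stood at 118 and 75.8 CPM in vehicle and 150 and 80.1 CPM in cisplatin. The 2 closer genes were low, so counting error limits their match. Mstn stood at 4.23 and 2.84 CPM in vehicle and 5.47 and 2.89 CPM in cisplatin. Ubash3a stood at 1.44 and 0.965 CPM in vehicle and 1.89 and 0.935 CPM in cisplatin. For Hcn3 they were Cacna2d3, a calcium channel auxiliary subunit gene, at 0.020, Jakmip3 at 0.0227 and Clstn2, which encodes a synaptic cadherin-like protein, at 0.0259, against a median of 0.534. For Hcn4 they were Msrb2 at 0.00482, Vopp1 at 0.0132 and Dusp22, a phosphatase gene, at 0.0134, against a median of 0.387. Between the HCN genes the RMS difference was 0.165 for Hcn2 and Hcn4, 0.179 for Hcn2 and Hcn3 and 0.270 for Hcn3 and Hcn4. With 4 libraries, many genes share any one profile, and 596 genes lay closer to Hcn2 than Hcn4 did.

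Proteins that bind HCN channels, or that set the amount of cAMP they respond to, were taken from lists, and none of their genes was called by edgeR. The median log2 fold change over all genes tested was -0.01. Among 14 genes of HCN partner proteins the median was -0.22, with 0 called, 0 at an unadjusted p under 0.05 and 0 called by DESeq2. Over all genes tested, edgeR called 0.00679%, 9.57% passed at that unadjusted p and DESeq2 called 0.652%. Vapa and Vapb, which encode membrane proteins of the endoplasmic reticulum, were the highest of them by mean FPKM. Vapa stood at 237 and 234 CPM in vehicle and 273 and 263 CPM in cisplatin, a log2 fold change of 0.18 ± 0.19 (SE). Vapb stood at 117 and 94.6 CPM in vehicle and 110 and 85.2 CPM in cisplatin, a log2 fold change of -0.11 ± 0.22 (SE). Pex5l, which encodes the HCN auxiliary subunit TRIP8b, stood at 35.4 and 26.6 CPM in vehicle and 22.2 and 20.8 CPM in cisplatin. Both cisplatin libraries of Pex5l lay below both vehicle libraries, with a log2 fold change of -0.53 and a 95% interval of -1.08 to 0.03 (edgeR adjusted p = 0.519). Magi2, a scaffold protein gene, stood at 20.8 and 44.0 CPM in vehicle and 10.4 and 29.2 CPM in cisplatin, with a log2 fold change of -0.71 ± 0.57 (SE). Groups did not overlap for 3 of the 14, Vapa and Ptpra higher and Pex5l lower, against 20.6% of all genes tested with cisplatin higher and 21.2% with cisplatin lower.

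Genes of cAMP synthesis gave 14 tested rows for 13 symbols, since Gnas has 2 rows, and edgeR called none. Their median log2 fold change was -0.10. At an unadjusted p under 0.05 there was 1 higher (Gnas) and 3 lower (Adcy1, Adcy6 and Adcy9), and with Adcy5 they were the 5 rows whose groups did not overlap. Over all genes tested, 9.57% passed at that unadjusted p, and the groups did not overlap with cisplatin higher in 20.6% and lower in 21.2%. The more abundant row of Gnas, which encodes the stimulatory G protein alpha subunit, stood at 528 and 604 CPM in vehicle and 1150 and 929 CPM in cisplatin. Its log2 fold change was 0.88 with a 95% interval of 0.18 to 1.57 (edgeR adjusted p = 0.509), and the 2 Gnas rows could share reads, which makes each uncertain. Adcy1, a calcium-stimulated adenylyl cyclase gene, stood at 20.9 and 16.6 CPM in vehicle and 4.09 and 7.27 CPM in cisplatin. Its log2 fold change was -1.72 with a 95% interval of -2.59 to -0.85 (edgeR adjusted p = 0.509). DESeq2 called Adcy1 alone from this list, with an adjusted p of 0.00886, against 0.652% of all genes tested. Adcy9, another adenylyl cyclase gene, stood at 14.7 and 12.9 CPM in vehicle and 5.55 and 6.72 CPM in cisplatin, a log2 fold change of -1.17 ± 0.25 (SE). Gnal, which encodes a related G protein alpha subunit, stood at 50.2 and 39.0 CPM in vehicle and 73.4 and 41.1 CPM in cisplatin, and its groups overlapped.

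Genes of cAMP breakdown and its effectors numbered 23 tested of 24 listed, with a median log2 fold change of -0.31 and 0 called by edgeR or DESeq2. At an unadjusted p under 0.05 there were 2, Prkar2a and Pde3a, both lower, against 9.57% of all genes. Both cisplatin libraries lay below both vehicle libraries in 9 of the 23, an order seen in 21.2% of all genes. They lay above in 1, Prkaca, which encodes a catalytic subunit of protein kinase A, against 20.6% of all genes. Pde3a, a cyclic nucleotide phosphodiesterase gene, stood at 5.51 and 7.11 CPM in vehicle and 0.708 and 2.68 CPM in cisplatin, a log2 fold change of -1.90 with a 95% interval of -3.44 to -0.36 (edgeR adjusted p = 0.509). Prkar2a, a regulatory subunit gene of protein kinase A, stood at 45.3 and 30.02 CPM in vehicle and 22.6 and 17.9 CPM in cisplatin, a log2 fold change of -0.90 ± 0.27 (SE). Prkar1a and Prkar1b, the highest of the list by mean FPKM, also encode regulatory subunits. Prkar1a stood at 366 and 316 CPM in vehicle and 243 and 255 CPM in cisplatin, a log2 fold change of -0.45 ± 0.21 (SE). Prkar1b stood at 133 and 78.3 CPM in vehicle and 159 and 75.4 CPM in cisplatin, with overlap.

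Channels that share the cyclic nucleotide-binding fold with the HCN family had 7 tested rows of 15, and edgeR and DESeq2 called none. None passed at an unadjusted p under 0.05, against 9.57% of all genes tested, and the median log2 fold change was 0.10. Cnga2, in both of its rows, and Cnga3 held 0 counts in every library. Kcnh2, the ERG potassium channel gene, was the highest by mean FPKM and stood at 126 and 84.2 CPM in vehicle and 183 and 87.0 CPM in cisplatin. Its Rat 1 libraries were again the higher ones, and its log2 fold change was 0.36 ± 0.40 (SE). Kcnh6, of the same subfamily, stood at 24.4 and 12.95 CPM in vehicle and 36.2 and 19.1 CPM in cisplatin, with overlap. Kcnh7, the other ERG gene, stood at 7.75 and 5.84 CPM in vehicle and 4.49 and 3.78 CPM in cisplatin. Its log2 fold change was -0.72 ± 0.30 (SE, edgeR adjusted p = 0.519). Of the 7, only Kcnh7 had groups without overlap, cisplatin being lower, an order seen in 21.2% of all genes tested.

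**Figure D4:**
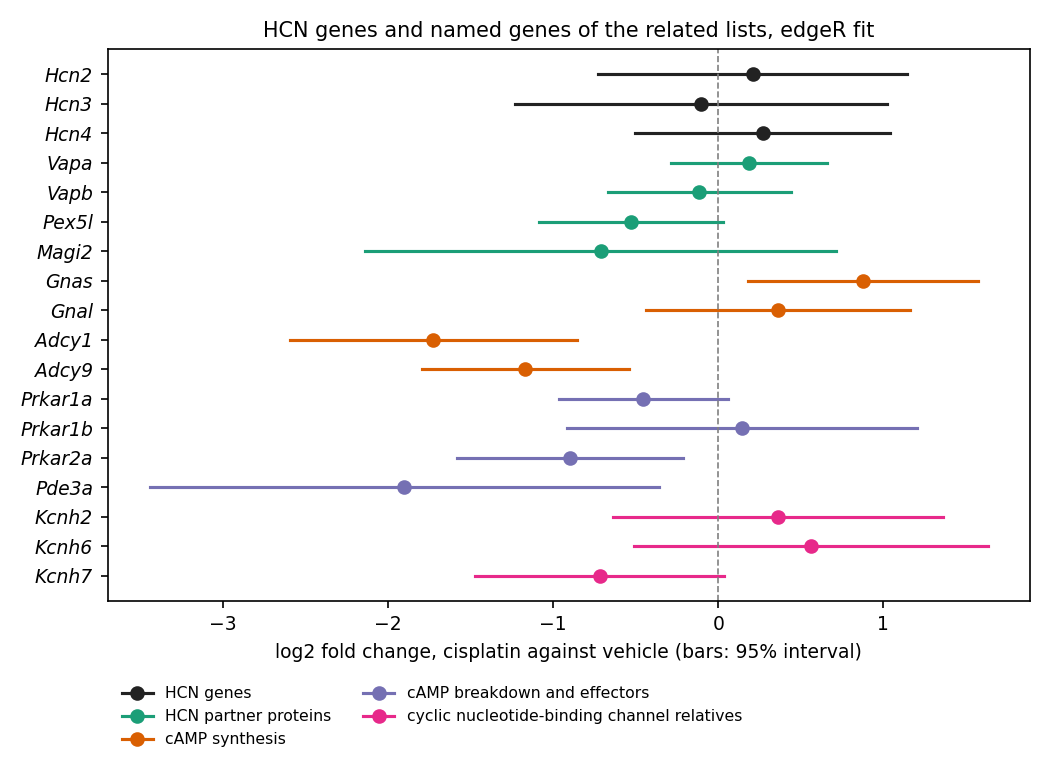
Log2 fold change of cisplatin against vehicle with its 95% interval from the edgeR fit, for the 3 HCN genes and the named genes of the 4 related lists, coloured by list. The intervals of Hcn2, Hcn3 and Hcn4 all span 0, with estimates of 0.21, -0.10 and 0.27, and those of Gnas, Adcy1, Adcy9, Prkar2a and Pde3a do not, although none of them passed after adjustment over all genes.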

How the data were processed

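Lumbar DRG RNA was measured in 4 libraries, 2 per treatment, grouped by the sample labels. The authors deposited whole-number counts per gene for 33506 genes, without normalisation, and FPKM values, with coordinates of Rnor_6.0. The submitters' processing notes name HISAT2 2.0.5, StringTie 1.3.3b and featureCounts 1.5.0-p3. Both tables were used in full for protein-coding genes, as non-coding genes were left out by the study.

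Counts were filtered with filterByExpr, scaled with TMM and tested without a block in edgeR 4.0.16 under R 4.3.3, by glmQLFit followed by glmQLFTest. The SE was the absolute log2 fold change divided by the root of F. The tests were checked on simulated data, with less spread between libraries than the real counts had. That check does not show how the tests perform at the spread of these data. Log2 CPM used a prior count of 2. Nothing beyond the rat numbers says how the samples were taken, and p-values measure the spread between 2 rats a group. Reads are not independent molecules, so counting intervals cover counting error only.

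Alternatives were DESeq2 1.42.0, its size factors within edgeR, scaling by library size only, leaving off the filter, a minimum of 10 counts, all biotypes, gene length correction (lowess, span 0.3), limma 3.58.1 on log2(FPKM + 1) and log2(FPKM + 0.1), which understates changes of low genes, a block for rat number and leaving out single libraries. The block together with the length correction, edgeR's earlier quasi-likelihood method and DESeq2's filtering at 0.05 were chosen after seeing the data. The members and lists were chosen with earlier results of these data known. Genes named from a list were those called, otherwise the 2 highest by mean FPKM and the 2 with the smallest p, together with the 3 closest profiles to each HCN gene and markers at 0. Ptpra, Adcy5, Adcy6, Prkaca, Cnga2, Cnga3, Nefl, Nefm, Nefh, Prph, Ntrk3 and LOC100911363 were named after their values were seen, as was Pklr for its overlap.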

Additional observations from a re-analysis of the deposited data

How the results depend on the processing

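No HCN gene was called under any of 17 alternatives, with adjusted p from 0.314 to 0.996 for Hcn2, 0.607 to 0.995 for Hcn3 and 0.106 to 0.9996 for Hcn4. Leaving out each library in turn gave log2 fold changes of -0.32 to 0.60 for Hcn2, with -0.06 without vehicle Rat 2, of -0.60 to 0.47 for Hcn3, with 0.27 without cisplatin Rat 2, and of 0.00 to 0.56 for Hcn4. Gene length correction gave 0.18 for Hcn3, and with the block 0.19. For Hcn4 the block with the length correction, chosen after seeing the data, gave 0.50. Its 95% interval, 0.09 to 0.91, was wholly positive (edgeR unadjusted p = 0.021, adjusted p = 0.106). In the same setting the intervals of Hcn2 (-0.06 to 0.45) and Hcn3 (-0.27 to 0.64) held both signs. The share difference ran from -0.392 to 0.579 percentage points for Hcn2, with -0.0792 without vehicle Rat 1, and from -0.201 (without cisplatin Rat 2) to 0.720 for Hcn4. Over all genes, against 1 called, the count was 2 with no filter, 2 with a minimum of 10 counts, 99 with DESeq2, 124 with its filtering at 0.05, 4 and 2 with limma at pseudocounts of 1 and 0.1, 0 to 7 without 1 library (5 without vehicle Rat 1, 4 without vehicle Rat 2), and 1195 at an unadjusted p under 0.05 with a fold change of at least 1.5. DESeq2 called 1 gene of cAMP synthesis under both of its filters. Same-numbered libraries come from different rats and share only a number in the sample titles, which the column names of the cisplatin counts do not carry. Their deviations nevertheless correlated across genes at 0.444 (Pearson). With the replicate block, log2 fold changes were 0.17 for Hcn2 (edgeR adjusted p = 0.366), -0.09 for Hcn3 (0.805) and 0.27 for Hcn4 (0.359). Of the 14719 genes tested, 1665 were called with the block. These included 1 of 14 partner genes (Magi2) and 4 of 14 rows of cAMP synthesis (Gnas, Adcy1, Adcy6, Adcy9). They also included 4 of 23 genes of cAMP breakdown and effectors (Prkacb, Prkar2a, Pde10a, Pde3a). With the block and the length correction together, 1082 of the 14719 genes were called, with Magi2 and the same 4 genes of cAMP synthesis. Also called were 4 of the 23 of cAMP breakdown and effectors (Pde2a higher, Prkacb, Prkar2a and Pde3a lower) and 1 of 7 channel relatives (Kcnh6). The cause of these differences was not tested. Depth limits Hcn3 and Hcn4, at 118 to 372 counts a library.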
